A study of Rattus norvegicus with 9 samples.

Results

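The 7 genes described here belong to the handling of fatty acids inside cells: 5 fatty acid binding protein genes (Fabp9, Fabp3, Fabp4, Fabp5 and Fabp7), the fatty acid receptor gene Cd36, and Pparg, which encodes a nuclear receptor that binds fatty acids. They were chosen by gene name, and every probe of the array whose name or RefSeq accession led to one of them was taken. Each gene had 1 probe. The array measured 35166 gene names or identifiers, of which 22451 had enough signal to be tested, and 5 of the 7 genes were among those. The 22451 are called genes below, but only 11604 of them matched a current gene symbol. The rest kept the name given in the scanner files and may include more than 1 name for a gene. All cultures were of Sertoli cells, which line the seminiferous tubule and support germ cells, isolated from testes of rats aged 5, 12 or 60 days. At every age the cells were cultured for 4 days in a defined medium with growth factors, and ovine follicle-stimulating hormone (oFSH, 50 ng/ml) and testosterone (1e-07 M) were then given in pulses for 11 h. Each age had 3 one-colour arrays, 9 in all, and no culture without hormones was measured, so every comparison is between ages of hormone-treated cells. The labels name no genotype or strain, do not say how germ cells and other testis cells were removed, and do not say whether replicates were separate animals or cultures. The p-values therefore measure the spread between these arrays, which may be technical, and the small number of arrays limits their precision.

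Fatty acid binding proteins are small cytosolic proteins that hold a long-chain fatty acid in a barrel-shaped pocket and carry it between membranes, enzymes and the nucleus. Each form is known for the tissue where it abounds: Fabp3 in heart and muscle, Fabp4 in adipocytes and macrophages, Fabp5 in epidermis, Fabp7 in brain and Fabp9 in testis, where the rat protein lies in the perforatorium of the sperm head. The cell surface protein CD36 takes up fatty acids and oxidised lipids in macrophages, adipocytes and the endothelium of small vessels, and in the testis it has been linked to the engulfment of apoptotic germ cells by Sertoli cells. The receptor encoded by Pparg pairs with a retinoid X receptor, is activated by fatty acids and their products, and drives adipocyte formation. Sertoli cells engulf dying germ cells and residual bodies, store their lipid in droplets and burn fatty acids, while they export lactate to germ cells.

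The signals below come from these 60-base probes, which are shown because each value of a gene rests on 1 sequence. They are written 5′ to 3′ as the scanner files give them, with no part set in capitals.
Fabp9: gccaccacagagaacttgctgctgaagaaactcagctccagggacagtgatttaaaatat
Fabp3: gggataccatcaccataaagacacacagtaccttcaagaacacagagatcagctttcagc
Fabp5: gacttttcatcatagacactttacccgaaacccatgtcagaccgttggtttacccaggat
Fabp4: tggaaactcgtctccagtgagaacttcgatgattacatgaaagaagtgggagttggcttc
Fabp7: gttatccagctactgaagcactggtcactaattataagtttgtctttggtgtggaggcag
Cd36: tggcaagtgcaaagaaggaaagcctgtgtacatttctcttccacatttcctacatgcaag
Pparg: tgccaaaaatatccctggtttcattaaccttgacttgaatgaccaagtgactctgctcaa
In rn4, the build named in the scans of replicates 2 and 3, the probe of Fabp9 lies at chr2:93550720-93550779, that of Fabp3 at chr5:149344170-149344229 and that of Fabp7 at chr20:36815975-36816034, all on the plus strand. The Pparg probe lies at chr4:151600180-151600239 on the plus strand. The files give the Cd36 probe as chr4:13518295-13519542 and the Fabp4 probe as chr2:93536175-93538589, intervals of 1248 and 2415 bases for probes of 60 bases. The Fabp5 probe has only an unplaced position, chrUn:41847300-41847359 on the minus strand. No annotation of rn4 was used, so the exon or untranslated region of a probe is not given. Between any pair of the 5 binding protein probes the longest shared run was 5 to 8 bases. The probes were compared only with each other, so whether a probe also matches the transcript of another family member was not tested. RefSeq names pseudogenes of Fabp5 and Cd36-like genes in the rat, and whether these probes also match those copies was not checked, which leaves the source of the Fabp5 and Cd36 signals uncertain. In the order of genes of the GRCr8 assembly, Fabp12, Fabp4, Fabp9, Pmp2 and Fabp5 stand in this sequence on chromosome 2, so 3 of the 5 binding protein genes are neighbours there.

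Levels are log2 signals after subtraction of each array's 75th percentile (0 is the signal at that percentile), and levels of different genes come from different probes and are not set against each other. The share of probes well above background was 49.1% to 63.0% per array, and 29 to 140 probes of an array reached saturation. Arrays of the same age correlated at 0.942 to 0.970 across the genes tested. Each slide held 1 array of every age at the same position, so the effects of age and of position cannot be told apart. Of 20 Sertoli cell markers, 19, 20 and 20 were well above background on at least 1 array at 5, 12 and 60 days, and the exception at 5 days was Gata1. At 5 days 14 of 15 macrophage markers and 15 of 15 peritubular and fibroblast markers met the same mark, so these counts do not set the labelled cell type apart from others. The levels of the other cells' markers are described after the genes.

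Of the 7 genes, 5 were called between some of the ages. The words rose and fell are used of genes called by limma's moderated test across all genes, with a threshold of 0.05 on the adjusted p. In the comparison of 12 with 5 days, 2 genes rose (Fabp9 and Pparg) and 1 fell (Cd36), where 12.5% of all genes tested were called (6.14% higher and 6.33% lower). In the comparison of 60 with 12 days, 3 rose (Fabp9, Fabp3 and Pparg) and 1 fell (Fabp5), against 25.3% of all genes called (12.3% higher and 13.1% lower). Between 60 and 5 days, 3 rose and 2 fell, against 35.4% of all genes (17.3% higher and 18.1% lower). Over the 3 ages, limma's F-test called all 5 genes tested, with adjusted p from 3.60e-07 for Fabp9 to 0.00301 for Cd36, and 36.7% of all genes. These counts cover the 5 genes that passed the filter on signal, and Cd36 and Pparg passed it only through the age at which they were higher, so the counts themselves say little. Over all genes tested the log2 fold change had a median of 0.05, -0.16 and -0.09 in the comparisons of 12 with 5, 60 with 12 and 60 with 5 days.

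**Figure D1:**
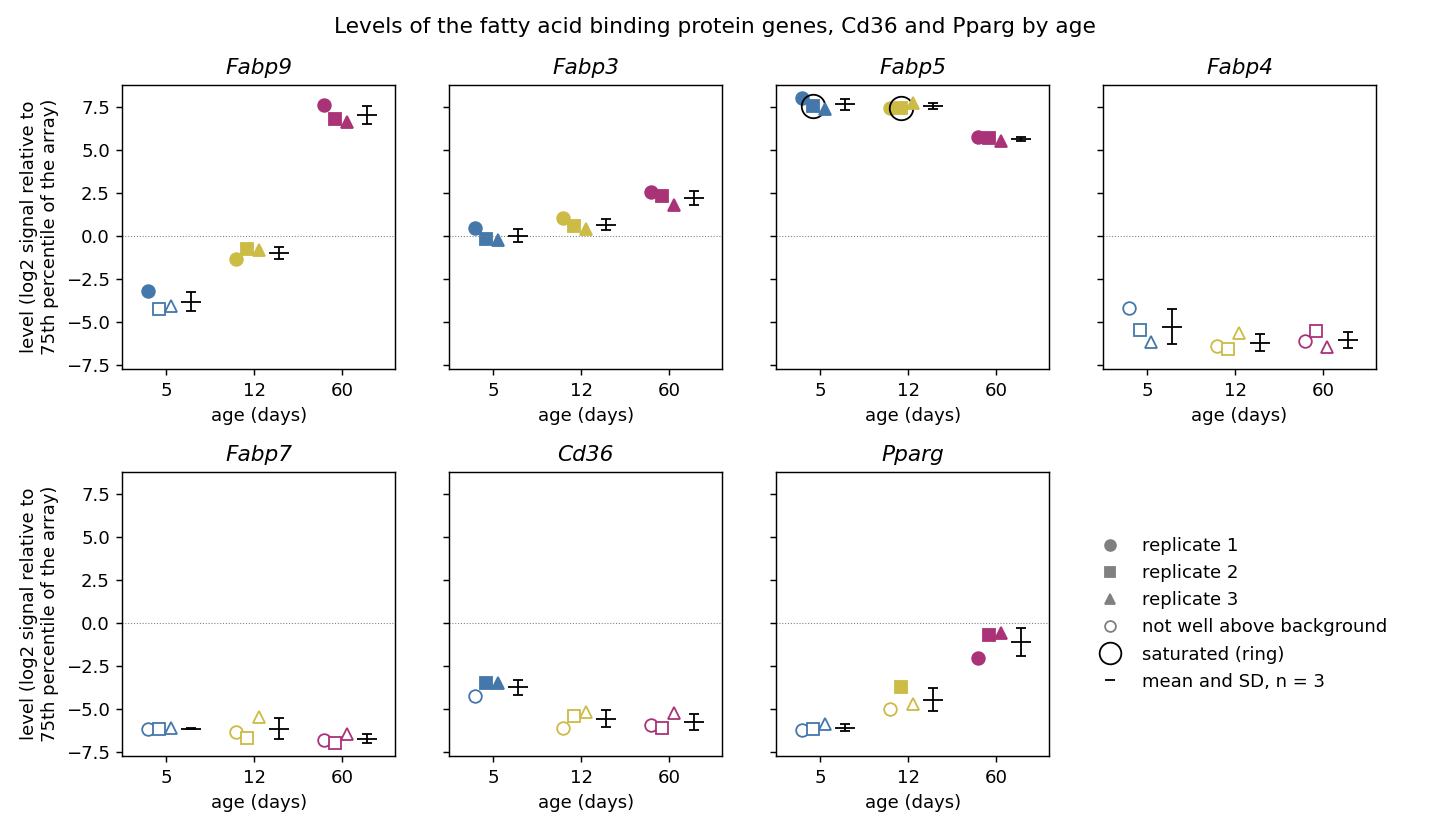
Levels of the 7 genes on each array by age (x axis, days; y axis, log2 signal minus the array's 75th percentile), with one symbol per replicate, open symbols where the probe was not well above background, rings for saturated spots, and bars for the mean and SD of 3 arrays. Fabp9 and Pparg stepped up with age, Fabp5 was lower at 60 days, and Fabp4 and Fabp7 stayed below background on all 9 arrays.

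All directions are measured against the other genes on an array. Scaling to the 7 spike-in controls, which answer to synthetic RNA, moved every log2 fold change by -1.30 at 12 against 5 days, by 1.02 at 60 against 12 days and by -0.28 at 60 against 5 days. On that scale 58 genes rose and 1376 fell at 12 against 5 days (1379 and 1422 on the percentile scale), and 2092 rose and 244 fell at 60 against 12 days (2752 and 2935). The calls of the 7 genes that held on it were the fall of Cd36 at 12 days against 5 days and the rises of Fabp9 and Pparg at 60 days against both younger ages. With a model-based background correction (normexp), which could be run on the 6 arrays of replicates 1 and 3, the rises of Fabp9 at 60 days against both younger ages were the calls that held. With the slide as a block in that fit, those of Fabp5 at 60 against 12 and 5 days and of Fabp3 at 60 against 5 days held as well. Normexp was run with an offset of 50 intensity units added before the log, which shrinks log2 differences of dim signals. The normexp log2 differences, the same with and without the block, were smaller for the dim genes. At 12 against 5 days they were 0.56 for Fabp9, -0.017 for Cd36 and 0.13 for Pparg, none of them called. At 60 against 5 days they were 7.08 for Fabp9, 1.26 for Fabp3, -2.31 for Fabp5, -0.11 for Cd36 and 0.48 for Pparg.

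Fabp9, the testis form, showed the widest change of the 5 genes tested. Its level was -3.17, -4.21 and -4.03 at 5 days, -1.35, -0.73 and -0.81 at 12 days, and 7.61, 6.80 and 6.63 at 60 days. The 3 ages did not overlap, and all 3 arrays of an older age lay above all 3 of a younger one. At 12 days Fabp9 was 2.84 ± 0.40 log2 units (fold change ± SE) above its level at 5 days (adjusted p = 0.00109, limma), a 7.16-fold rise. At 60 days it was 7.98 ± 0.40 above its level at 12 days (adjusted p = 2.58e-06), which is 252-fold, and this difference was 7.44 to 8.96 on the 3 slides. Against 5 days the rise at 60 days was 10.82 ± 0.40 (adjusted p = 1.52e-07), but at 5 days only 1 of 3 arrays had Fabp9 well above background, so the sizes against 5 days are uncertain. The call at 12 against 5 days was lost without replicate 2 (2.52, adjusted p = 0.0505) and on the spike-in scale (1.54, adjusted p = 0.324). Germ cell markers moved with it: the median level of 15 spermatocyte markers was -6.12 to -5.88 at 5 days, -2.83 to -2.51 at 12 days and 2.10 to 2.43 at 60 days, and their part in the rise of Fabp9 was not tested.

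Fabp3, the heart and muscle form, had smaller changes than Fabp9 and was called only in the comparisons with 60 days. Its level was 0.46, -0.15 and -0.22 at 5 days, 1.03, 0.58 and 0.39 at 12 days, and 2.58, 2.34 and 1.79 at 60 days, well above background on all 9 arrays. The arrays of 12 and 5 days overlapped, while all arrays of 60 days lay above both. At 12 days the level differed from that at 5 days by 0.64 ± 0.36, which missed the threshold (adjusted p = 0.330). The slides gave 0.56 to 0.73 for this difference, each of them positive, and its adjusted p with the slide as a block was 0.140. At 60 days Fabp3 was 1.57 ± 0.36 above 12 days (adjusted p = 0.00792) and 2.21 ± 0.36 above 5 days (adjusted p = 0.000601), which is 2.97-fold and 4.62-fold. The rise at 60 against 12 days was not called without replicate 2 (1.48, adjusted p = 0.122) or on the spike-in scale (2.59, adjusted p = 0.0671), and that at 60 against 5 days was not called on the spike-in scale (1.93, adjusted p = 0.210).

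Fabp5, the epidermal form, went the other way. Its level was 8.03, 7.55 and 7.41 at 5 days, 7.46, 7.45 and 7.74 at 12 days, and 5.75, 5.69 and 5.53 at 60 days. The 12-day and 5-day arrays overlapped, and every 60-day array lay below all of them. The spot was saturated on the arrays of replicate 2 at 5 and 12 days, so those signals are lower limits. At 12 against 5 days the difference was -0.12 ± 0.31 (adjusted p = 0.894), with -0.57 to 0.33 on the 3 slides. On replicate 2 both of these spots were saturated, so the difference on that slide gives no size or direction. At 60 days Fabp5 fell to a mean of 5.65 ± 0.11, against 7.55 ± 0.17 at 12 days (SD, n = 3 each), a log2 difference of -1.89 ± 0.31 (adjusted p = 0.00104), and its difference from 5 days was -2.01 ± 0.31 (adjusted p = 0.000409). With the saturated spots at their measured values these falls were at least 3.71-fold and 4.02-fold; on the spike-in scale neither was called (-0.87, adjusted p = 0.656 and -2.29, adjusted p = 0.104).

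Fabp4, the adipocyte and macrophage form, and Fabp7, the brain form, were not well above background on any of the 9 arrays and were not tested. The Fabp4 level ran from -6.14 to -4.17 at 5 days, from -6.56 to -5.61 at 12 days and from -6.45 to -5.52 at 60 days. The Fabp7 level ran from -6.18 to -6.09 at 5 days, from -6.67 to -5.48 at 12 days and from -6.96 to -6.44 at 60 days. Levels of this kind are a bound set by background and give no order between ages. A fit of all genes without the filter called neither gene in any comparison (adjusted p 0.315 to 0.9998).

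Other members of the family were measured with the remaining probes. Fabp6, the ileal form that binds bile acids, was at -3.32, -4.37 and -3.32 at 5 days and had a mean level of -3.04 ± 0.13 at 12 days and -6.40 ± 0.74 at 60 days (SD, n = 3 each). Its probe was clearly above background on 2 of 3 arrays at 5 days, 3 of 3 at 12 days and 0 of 3 at 60 days, so that its falls are bounds: at least 2.95-fold lower at 60 than at 12 days (adjusted p = 0.000269) and at least 1.90-fold lower at 60 than at 5 days (adjusted p = 0.000582). Such a bound sets the mean of the brighter age against the lowest signal that was well above background on the arrays of the dimmer age. Fabp1 of liver, with 2 probes, and Fabp2 of intestine did not pass the filter, and no probe was found for Fabp12 and Pmp2.

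**Figure D2:**
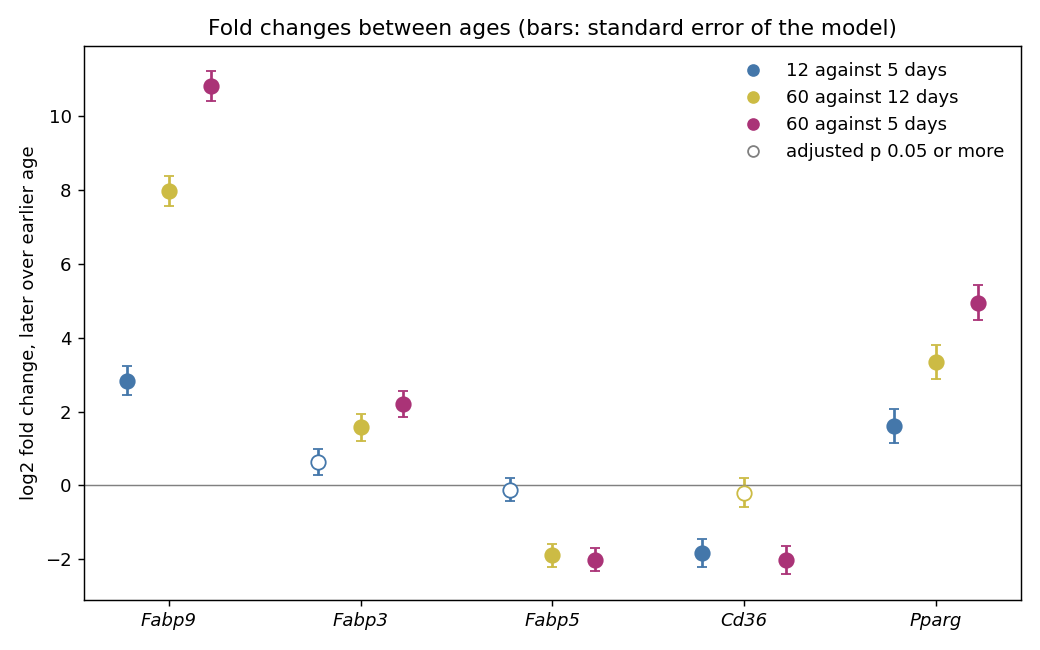
Log2 fold changes of the 5 genes tested (y axis, later over earlier age) for the 3 comparisons, with bars for the standard error of the model and open symbols where the adjusted p was 0.05 or more. Fabp9, Fabp3 and Pparg lay above 0 in all comparisons and Cd36 and Fabp5 below it, with the 12 against 5 day changes of Fabp3 and Fabp5 and the 60 against 12 day change of Cd36 not called.

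Cd36, the uptake receptor, was measurable at 5 days only. Its level was -4.22, -3.48 and -3.48 at 5 days, -6.09, -5.39 and -5.18 at 12 days, and -5.91, -6.09 and -5.25 at 60 days. The 5-day arrays lay above all others, and the arrays of 60 and 12 days overlapped. The probe exceeded background clearly on 2 of 3 arrays at 5 days and on none at 12 or 60 days, so its falls are bounds: at least 1.22-fold lower at 12 than at 5 days (adjusted p = 0.0107) and at least 1.83-fold lower at 60 than at 5 days (adjusted p = 0.00194). The fitted log2 differences behind these calls were -1.82 ± 0.39 and -2.02 ± 0.39. Both calls depended on the settings. That at 12 days was lost without any one replicate number (adjusted p 0.0515 to 0.137), when only replicate 1 of the 12-day arrays was dropped (adjusted p = 0.0501) and in the deposited log2 table (-1.48, adjusted p = 0.262), and that at 60 days without replicate 2 (adjusted p = 0.0603), on the spike-in scale (adjusted p = 0.101) and in the deposited table (-1.96, adjusted p = 0.0632). The summed signal of 15 macrophage markers, in multiples of the 75th percentile, was 10.45 to 17.8 at 5 days, 3.095 to 3.65 at 12 days and 4.36 to 5.08 at 60 days. Single markers went both ways, and at 60 against 5 days 9 of the 15 fell and 3 rose. Endothelial and adipocyte markers also had lower summed signals at 60 than at 5 days, with 1 marker of each list called higher. The part of these markers in the level of Cd36 was not tested.

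Pparg, the nuclear receptor, rose with age from a level below background. Its level was -6.22, -6.16 and -5.84 at 5 days, -5.00, -3.72 and -4.68 at 12 days, and -2.06, -0.69 and -0.61 at 60 days. The 3 ages did not overlap, and the probe was well above background on 0, 1 and 3 of 3 arrays at 5, 12 and 60 days. At 60 days Pparg was 3.35 ± 0.47 above its level at 12 days (adjusted p = 0.000415), and this difference was 2.94 to 4.07 on the 3 slides. Since 1 of 3 arrays of 12 days measured it above background, the size of this rise is uncertain. At 60 days it was at least 7.42-fold higher than at 5 days (adjusted p = 1.47e-05). On the normexp scale the difference at 60 against 5 days was 0.48 and was not called (adjusted p = 0.700 with the slide as a block). The offset of 50 units shrinks differences of dim signals on that scale, so its sizes and the bound are not comparable. The 12-day arrays were higher than the 5-day arrays by 1.61 ± 0.47 (adjusted p = 0.0477), and both were dim, so no fold is given. This last call was lost without any one replicate number (adjusted p 0.0619 to 0.364) and in 19 of 22 alternatives in all, among them the array median as the scale (adjusted p = 0.0517) and quantile normalisation (adjusted p = 0.0631), while with the slide as a block the adjusted p was 0.0152. In the deposited table the rise at 60 against 12 days was not called (2.12, adjusted p = 0.120).

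Both probes had 10 spots on each array, which give a view of the measurement error within an array. On the Pparg probe at 60 days the spots ran from 57.4 to 80.9 intensity units on replicate 1, from 254 to 287 on replicate 2 and from 196 to 232 on replicate 3. At 5 days all spots used of Pparg on the 3 arrays lay between 1.79 and 8.52 intensity units. These ranges show the error within an array and not the spread between cultures. On 7 of the 18 gene-by-array values of Cd36 and Pparg 1 spot had a quality failure and was left out here. On 4 of those 7 the deposited table held the value of that failed spot (within 0.01 log2 units), such as 78.8 units for Pparg on the 5-day array of replicate 2, where the other 9 spots ran from 4.23 to 5.22. At 12 days the deposited Pparg levels on replicates 1 and 3, each with a failed spot, were -2.94 and -3.08, against -5.00 and -4.68. Cd36 at 12 days on replicate 2 was at -3.19 in that table, against -5.39 here. At 5 days, with failed spots on replicates 1 and 3, Cd36 was at -3.10 and -3.43, against -4.22 and -3.48. The part of failed spots in the calls lost in the deposited table was not tested. On the 11 values with no failed spot the deposited value was within 0.03 log2 units of the mean of the 10 spots.

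**Figure D3:**
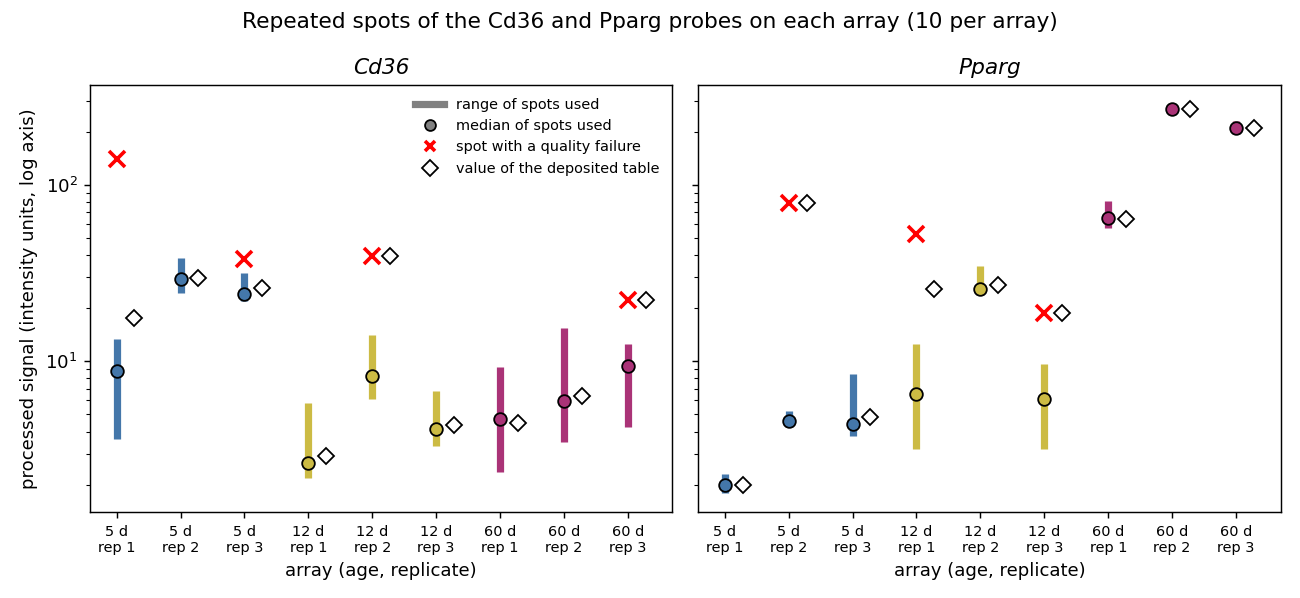
Processed signal (y axis, intensity units on a log axis) of the repeated Cd36 and Pparg spots on each of the 9 arrays (x axis), with bars for the range of the spots used, dots for their median, red crosses for a spot with a quality failure and diamonds for the value in the deposited table. On 4 of 7 arrays with a red cross the diamond lies on the cross, and the 60-day spots of Pparg lie above all 5-day spots that were used.

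Markers of other cells changed between the ages beside these genes. Their counts stand beside rises of 6.14%, 12.3% and 17.3% of all genes tested at 12 against 5, 60 against 12 and 60 against 5 days. In bulk samples fewer cells of a type and less RNA per cell cannot be told apart. All of 15 spermatocyte markers rose at 60 against 5 days, and 8 of 15 rose at 12 against 5 days; at 5 days 12 of the 15, among them Sycp1, Sycp3 and Ldhc, were well above background on no array. Of 17 spermatid markers 16 rose at 60 against 12 days and 0 were called at 12 against 5 days, where their median levels were -5.34 to -5.00 on the 12-day arrays and -6.11 to -5.39 on the 5-day arrays. At 60 days their summed signal was 33.3 to 52.1 and that of the spermatocyte markers 101 to 189 multiples of the 75th percentile. Sertoli cell markers rose in 14 of 20 at 12 against 5 days, in 6 of 20 at 60 against 12 days, where 1 fell, and in 14 of 20 at 60 against 5 days. On the spike-in scale 0 of 20 Sertoli cell markers rose at 12 against 5 days and 7 at 60 against 5 days, while 6 and 13 of 15 spermatocyte markers rose. On the percentile scale some spermatocyte and Sertoli cell markers rose in each comparison in which Fabp9, Fabp3 or Pparg rose. Spermatid markers did so only in the comparisons with 60 days. The parts of these markers in the rises of the genes were not tested.

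Falling markers were counted in the same way, beside falls of 6.33%, 13.1% and 18.1% of all genes tested in those comparisons. Of 15 macrophage markers 10 fell at 12 against 5 days, and 9 fell and 3 rose at 60 against 5 days (9 and 2 falls and 0 rises on the spike-in scale). At 60 against 12 days 6 of the 15 macrophage markers rose and 0 fell. Cd36 did not clearly exceed background at either age, so its difference there (-0.20 ± 0.39, not called) gives no order between them. It therefore cannot show whether Cd36 moved with these markers. Endothelial markers fell in 4 of 11 at 12 against 5 days and in 6 of 11 at 60 against 5 days, where 1 rose. At 60 against 12 days 4 of them fell and 1 rose. Their summed signal was 12.8 to 15.3 at 5 days, 11.3 to 18.7 at 12 days and 3.88 to 7.63 at 60 days. Peritubular and fibroblast markers fell in 11 of 15 at 60 against 5 days, and their summed signal was 583 to 1074 at 5 days, 339 to 475 at 12 days and 45.4 to 235 at 60 days. Of 10 adipocyte markers 4 passed the filter, and Lep, Plin1 and Retn were among those that did not, while the summed signal of the 4 was 1.42 to 2.56 at 5 days, 0.791 to 0.955 at 12 days and 0.217 to 0.240 at 60 days. Of the 4, 2 fell and 1 rose at 60 against 5 days. Leydig cell markers fell in 4 and rose in 2 of 10 at 60 against 5 days, and 4 of 6 spermatogonium markers rose and 1 fell. The brightest markers of these lists were Cd14 and Laptm5 (macrophage), Kdr and Egfl7 (endothelium), Tagln and Col1a2 (peritubular cells), Fdx1 and Scarb1 (Leydig cells), Uchl1 and Sohlh1 (spermatogonia), and Slc2a4 and Cfd (adipocytes).

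**Figure D4:**
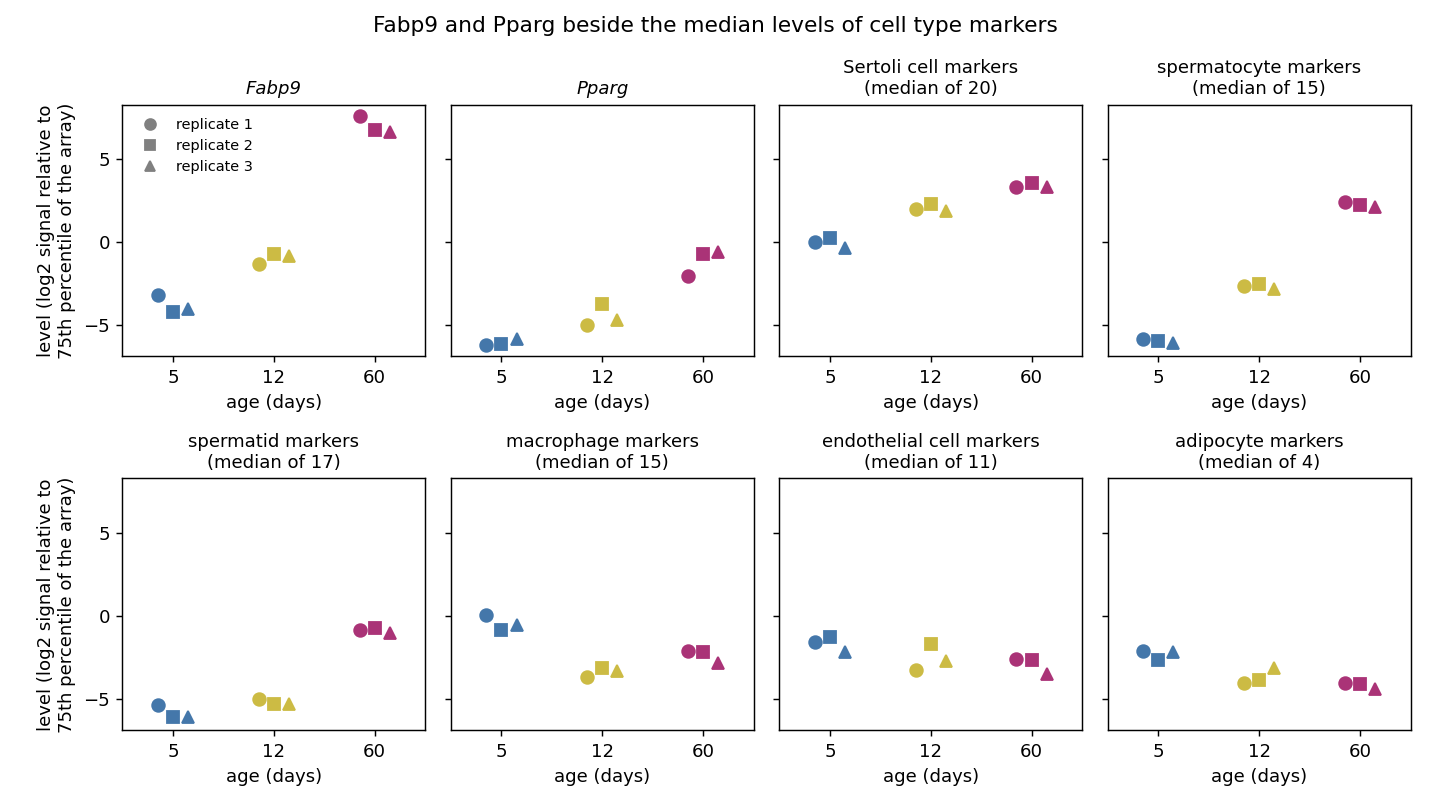
Levels of Fabp9 and Pparg on each array and the median level of 6 marker lists (y axis, log2 signal minus the array's 75th percentile) by age (x axis, days), with one symbol per replicate. The spermatocyte median was -6.12 to -5.88 at 5 days, -2.83 to -2.51 at 12 days and 2.10 to 2.43 at 60 days, and the macrophage median was highest at 5 days.

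Other genes of fatty acid handling and PPAR signalling were taken from 6 lists, and their changes are log2 fold changes ± SE. On the spike-in scale all 6 list medians were below 0 at 12 against 5 days (-1.62 to -0.89) and above 0 at 60 against 12 days (0.03 to 1.94), so directions of the lists hold relative to the other genes only. Genes that bring fatty acids into the cell and activate them moved both ways. Of 19 tested, 4 rose and 2 fell at 12 against 5 days (median log2 fold change 0.41), 4 rose and 4 fell at 60 against 12 days (0.04), and 6 rose and 5 fell at 60 against 5 days (0.10). Among all genes tested, 12.5%, 25.3% and 35.4% were called in these comparisons (6.14%, 12.3% and 17.3% higher, 6.33%, 13.1% and 18.1% lower). Slc27a6, a fatty acid transport protein, was 4.52 ± 0.53 higher at 60 than at 12 days (adjusted p = 0.000126), with 1 of 3 arrays above background at 12 days, and at least 18.6-fold higher at 60 than at 5 days. Acsl6, which joins long-chain fatty acids to coenzyme A, was at least 3.29-fold higher at 12 than at 5 days and at least 6.15-fold higher at 60 than at 5 days. Lpl, the lipase that frees fatty acids from lipoproteins, changed by -4.69 ± 0.84 at 60 against 12 days (adjusted p = 0.00203), and since 1 of 3 arrays of 60 days was above background (SD 2.22) that size is uncertain. Slc27a5, a bile acid and fatty acid ligase, rose by 2.47 ± 0.46 at 60 against 12 days, Slc27a2, an enzyme for very long chains, rose by 2.19 ± 0.57 at 12 against 5 days, and the endothelial lipase gene Lipg had a change of -2.49 ± 0.39 there. Slc27a2 at 5 days and Lipg at 12 days were above background on 1 of 3 arrays, which leaves both sizes uncertain.

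Receptors, partners and coregulators of PPAR signalling held few calls. Of 22 receptors, partners and coregulators, Pparg left out, 0 rose in any comparison, beside rises of 6.14%, 12.3% and 17.3% of all genes tested. The falls were 1 at 12 against 5 days, 5 at 60 against 12 days (median -0.72) and 6 at 60 against 5 days (median -0.48), beside falls of 6.33%, 13.1% and 18.1% of all genes tested. With the slide as a block the falls numbered 3, 10 and 8, and on the spike-in scale 0, 0 and 3. The adipogenic factors Ebf1 and Cebpd were the largest falls at 60 against 5 days, with log2 fold changes of -3.16 ± 0.53 (adjusted p = 0.000755) and -2.84 ± 0.37 (adjusted p = 0.000132). Cebpb, a related factor, changed by -1.31 ± 0.38 at 12 against 5 days and -2.36 ± 0.38 at 60 against 5 days. Klf4, a zinc finger factor, changed by -1.45 ± 0.40 at 60 against 12 days and Srebf1, the lipogenic factor, by -0.42 ± 0.37 at 12 against 5 days without a call. Srebf1 fell by 1.23 ± 0.37 at 60 against 12 days (adjusted p = 0.0331) and by 1.65 ± 0.37 at 60 against 5 days (adjusted p = 0.00522).

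Known PPAR targets and lipid droplet genes rose and fell at 12 and 60 days against 5 days. Of 17 tested, of 24 with a probe, 2 rose and 4 fell at 12 against 5 days (median -0.20), 5 rose and 0 fell at 60 against 12 days (median 0.93), and 6 rose and 3 fell at 60 against 5 days (median -0.14). Rises took 6.14%, 12.3% and 17.3% of all genes tested in these comparisons, and falls 6.33%, 13.1% and 18.1%. The lipid droplet gene Cidea rose by 2.66 ± 0.40 at 60 against 12 days and by 3.90 ± 0.40 at 60 against 5 days (adjusted p = 2.44e-05). Aqp7, a glycerol channel also known from sperm, was at least 3.79-fold higher at 60 than at 12 days. The adipokine genes differed in direction: Cfd, which encodes adipsin, had a change of -4.66 ± 0.41 at 12 against 5 days, with 1 of 3 arrays above background at 12 days, and Adipoq, which encodes adiponectin, was at least 1.75-fold higher at 12 than at 5 days (adjusted p = 0.0220).

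Triglyceride genes included large rises and falls. Of 17 tested, 3 rose and 1 fell at 12 against 5 days, 3 rose and 2 fell at 60 against 12 days, and 6 rose and 2 fell at 60 against 5 days (medians 0.04, 0.49 and 0.40). The shares of all genes tested that were called in either direction were 12.5%, 25.3% and 35.4%. Gpat2, a glycerol-3-phosphate acyltransferase best known from germ cells, rose by 4.40 ± 0.35 at 12 against 5 days and by 6.65 ± 0.35 at 60 against 5 days. The monoglyceride lipase gene Mgll was at least 16.2-fold higher at 60 than at 5 days, and G0s2, the inhibitor of the lipase that opens lipid droplets, changed by -4.40 ± 0.40 in that comparison. Genes of beta oxidation were mostly not called: of 30, 1 rose at 12 against 5 days, 2 rose at 60 against 12 days, and 3 rose and 2 fell at 60 against 5 days, beside the same shares of all genes. After quantile normalisation 8 rose at 60 against 12 days, and with the slide as a block 5 did, while at 60 against 5 days 4 rose and 5 fell with the block. Cpt1b, the muscle form of the carnitine transferase that admits fatty acids to mitochondria, rose by 2.90 ± 0.39 at 60 against 12 days, Crat, carnitine acetyltransferase, by 2.64 ± 0.46, and Acaa1b, a peroxisomal thiolase, by 2.78 ± 0.45 at 12 against 5 days, with 1 of 3 arrays above background at 5 days. Hadh, a mitochondrial dehydrogenase of this pathway, differed by -0.08 ± 0.31 at 12 against 5 days and was not called.

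Genes of fatty acid synthesis and desaturation fell at 60 days in 8 of 16 cases against 12 days and in 9 of 16 against 5 days. Of these 16 tested, 1 rose and 1 fell at 12 against 5 days, 2 rose and 8 fell at 60 against 12 days (median -0.99), and 3 rose and 9 fell at 60 against 5 days (median -0.87), beside falls of 13.1% and 18.1% of all genes tested. At 12 against 5 days 6.33% of all genes fell, and rises took 6.14%, 12.3% and 17.3% in the 3 comparisons. On the spike-in scale the falls numbered 2 at 60 against 12 days, with a median of 0.03, and 4 at 60 against 5 days. Scd, stearoyl-CoA desaturase, changed by -4.23 ± 0.45 at 60 against 12 days and by -5.58 ± 0.45 at 60 against 5 days, and the elongases Elovl4 and Elovl6 by -3.76 ± 0.43 and -3.60 ± 0.51 at 60 against 12 days. Elovl2, an elongase of very long polyunsaturated chains, went the other way and was at least 13.4-fold higher at 60 than at 5 days. Fads1, the delta-5 desaturase, changed by -1.15 ± 0.31 at 12 against 5 days, and Scd2 by -0.18 ± 0.29 there without a call. Scd2 fell by 0.87 ± 0.29 at 60 against 5 days (adjusted p = 0.0407).

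**Figure D5:**
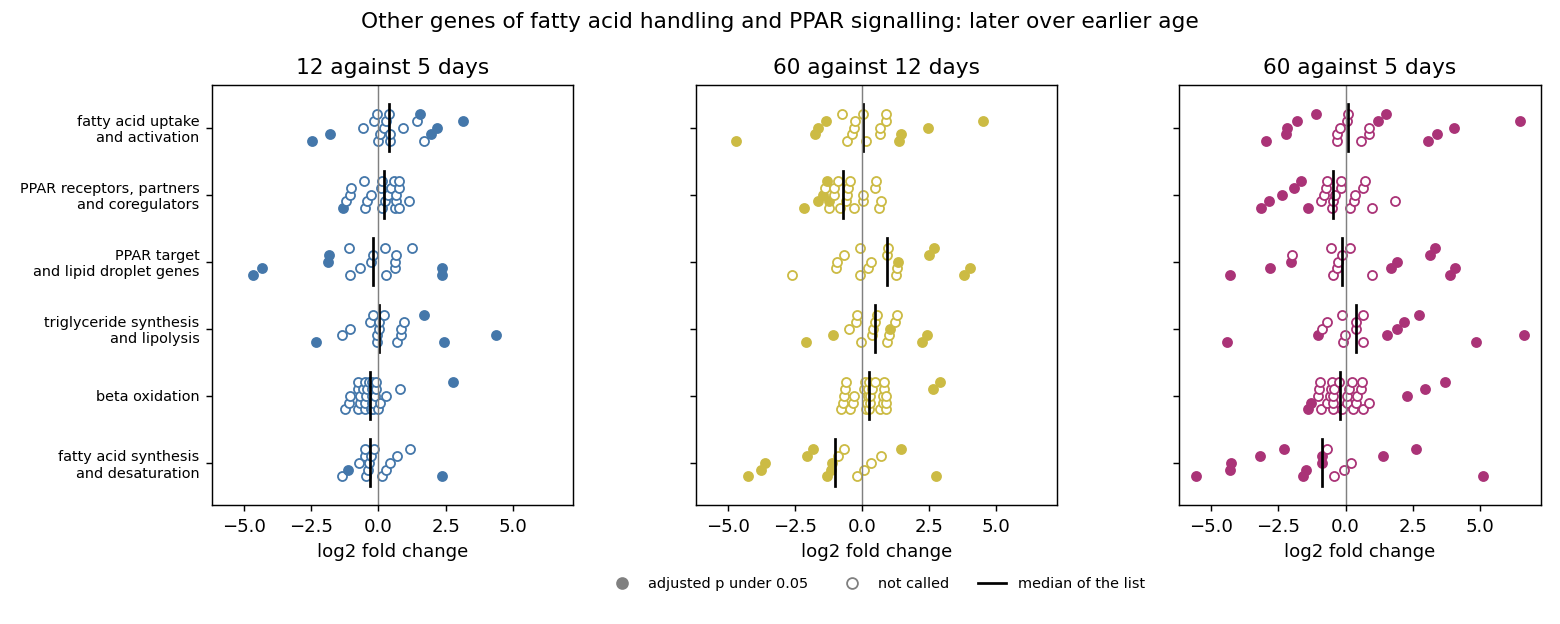
Log2 fold changes (x axis, later over earlier age) of the genes of 6 lists of fatty acid handling and PPAR signalling in the 3 comparisons, with filled symbols for called genes and black lines for the median of each list. The synthesis list lay lowest at 60 against 12 days (median -0.99), and beta oxidation genes lay mostly near 0.

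The genes with the most similar patterns were sought among 11577 other genes with a current symbol, by the smallest root mean square difference of levels centred on each gene's mean over the 9 arrays. For Fabp9 the nearest was Ldhc, the lactate dehydrogenase of spermatogenic cells and one of the spermatocyte markers, at 0.543 log2 units, then Shcbp1l (0.884) and Plaat1 (0.965). Fabp3 lay nearest to Tdrd7 (0.208), Inhca (0.231) and Pc (0.254), and Fabp5 to Ahsp (0.187), Fdps (0.212), which encodes an enzyme of isoprenoid synthesis, and Btbd3 (0.217). Cd36 lay nearest to Ypel3 (0.306), Efna2 (0.309) and Ftcd (0.351), and Pparg to Eno4 (0.317), Lmo2 (0.339) and Tent5d (0.431). At 5, 12 and 60 days Cd36 was well above background on 2, 0 and 0 of 3 arrays and Pparg on 0, 1 and 3. The matches of these genes therefore rest largely on signals near background. Across 3 ages many genes share a pattern, so these distances are descriptions.

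Promoters from 250 bases before to 50 bases after the gene start are given by RefSeq for Fabp3, Fabp7, Cd36 and Pparg, in the GRCr8 build. The Fabp3 and Pparg sequences are shown because both genes rose at 60 days, and that of Cd36 because it fell. They lie at chr5:147935875-147936174, chr4:150096808-150097107 and chr4:18246332-18246631, all on the plus strand. Capitals mark the letters TATAAA read on the opposite strand.
Fabp3: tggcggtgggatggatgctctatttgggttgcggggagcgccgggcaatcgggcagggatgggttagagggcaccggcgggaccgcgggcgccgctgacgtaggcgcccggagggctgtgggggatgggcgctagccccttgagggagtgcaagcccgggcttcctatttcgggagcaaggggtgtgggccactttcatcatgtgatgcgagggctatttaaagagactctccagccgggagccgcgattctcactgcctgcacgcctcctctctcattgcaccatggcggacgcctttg
Cd36: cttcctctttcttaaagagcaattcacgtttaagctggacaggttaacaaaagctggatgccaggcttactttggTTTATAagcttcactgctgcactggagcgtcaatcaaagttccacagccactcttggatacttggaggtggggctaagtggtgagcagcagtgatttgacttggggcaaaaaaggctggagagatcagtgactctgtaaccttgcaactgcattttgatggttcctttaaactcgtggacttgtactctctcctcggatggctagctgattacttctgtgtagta
Pparg: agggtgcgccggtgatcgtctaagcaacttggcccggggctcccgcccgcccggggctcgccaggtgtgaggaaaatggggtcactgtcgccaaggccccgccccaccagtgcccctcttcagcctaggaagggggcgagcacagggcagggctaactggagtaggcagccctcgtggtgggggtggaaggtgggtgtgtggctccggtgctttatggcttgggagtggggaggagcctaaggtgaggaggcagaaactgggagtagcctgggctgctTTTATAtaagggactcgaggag
Both strands were searched for AGGTCA, the core hexamer that PPAR and its partners read, for its direct repeat with any 1 base between the copies, for TATAAA and for TGACGTCA, the cyclic AMP response element. The hexamer was found in 16.2% of the 33469 rat promoters of this length and the repeat, which overlaps it, in 0.0538%, TATAAA in 14.2% and TGACGTCA in 1.83%. The Fabp3 window held none of the 4 motifs. The Cd36 window held TATAAA at -175 and the Pparg window shown held it at 28 bases after the start, while a further Pparg promoter held none. The Fabp7 window held 1 copy of the hexamer, at -196. A match describes letters in these windows and an absence says nothing about the factor.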

How the data were processed

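RNA of the 9 Sertoli cell cultures was labelled with Cy3 from an oligo-dT primer and hybridised to 1-colour Agilent rat arrays with 41012 probes, per the labels. Per the file headers, Feature Extraction 9.5.3.1 and a G2505B scanner served replicate 1, whereas replicates 2 and 3 came from version 10.5.1.1 and a G2505C scanner. The deposited scanner files hold a processed signal, an intensity after background subtraction without scaling between arrays, per the file headers. The table of log2 values that the authors deposited equals the log2 intensity less a constant of each array, to 0.01 in 99.8% of probes on each array. The constant was taken as the median difference on the array, and its identity with the 75th percentile was not checked. Labelling from oligo-dT favours polyadenylated RNA close to its 3′ end, and differences in RNA per cell are hidden by a fixed input.

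From the scans, control spots and spots with a quality failure were left out, repeated spots were averaged as log2 values, and each array was scaled to its 75th percentile (149 to 435 intensity units). A probe was kept where 2 or more of the 3 arrays of some age had it well above background (26599 probes), and the brightest probe stood for a gene, which left 22451 genes. With limma 3.58.1 (R 4.3.3), 1 mean for each age was estimated from all 9 arrays (degrees of freedom 6 residual and 4.64 prior), with 2-sided moderated tests of the 3 comparisons, an F-test and Benjamini-Hochberg adjustment over all genes. Older names were updated from RefSeq tables, and promoters and gene order are those of GRCr8. Plots were made with matplotlib 3.10.9.

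The genes and lists were chosen with earlier results of these data known. The text names all 7 genes, the other Fabp genes, up to 3 genes per pathway list and comparison (called genes with the largest change first, then the brightest), the 2 brightest markers of a cell type list, and the 3 nearest patterns per gene tested; some genes this rule takes are not reported here. Each replicate number is 1 slide. The correlation of deviations from the age means was 0.181 to 0.601 within a number and at most 0.0939 across numbers, so the numbers pair the arrays, and a fit with the slide as a block was an alternative. The other alternatives were 3 other scales, the deposited table, normexp with an offset of 50, other filters, every probe, the arrays of a comparison alone, and each replicate or array left out. The normexp fit with a replicate block was added after the data were seen.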

Additional observations from a re-analysis of the deposited data

How the results depend on the processing

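Across the 22 to 23 alternatives of each result, the rises of Fabp9 at 60 days against both younger ages kept their call in all of them, while the rise of Pparg at 12 against 5 days kept it in 3 of 22. Spike-in scaling gave 1434, 2336 and 3291 genes called at 12 against 5, 60 against 12 and 60 against 5 days (main 2801, 5687 and 7943) and 4143 over the 3 ages (8234), with 1, 2 and 2 of the 7 genes called (main 3, 4 and 5). Requiring signal well above background on all 9 arrays, which leaves 14619 genes, gave 1529, 3248, 4481 and 4685 genes and 0, 2 and 2 of the 7. Only Fabp3 and Fabp5 of the 7 met that filter, and these were the 2 called. Fabp9, Cd36 and Pparg were not tested under it, so their calls were not lost there. Normexp on 6 arrays gave 4, 2, 223 and 102 genes and 0, 1 and 1 of the 7, and with the replicate block 835, 1305, 2945 and 2827 genes and 0, 2 and 3 of the 7. The offset of 50 units shrinks the normexp differences of dim genes, and neither its part nor other causes of the calls lost under normexp were tested. In the spike-in fit and in the normexp fit with the block, limma gave all 5 genes tested the same standard error (0.97 and 0.43), so their p-values there do not follow each gene's own spread. The deposited table called 1 of the 7 at 12 against 5 days. Leaving out a replicate or an array gave 849 to 3077, 2769 to 5700 and 4912 to 7996 genes, 4624 to 7911 over the 3 ages, and 0 to 3, 3 to 4 and 4 to 5 of the 7, with the lowest gene counts without replicate 2. Changes that turned sign were never called: Fabp3 at 12 against 5 days (-0.66) and Cd36 at 60 against 12 days (0.82) on the spike-in scale, Fabp5 at 12 against 5 days without replicate 1 (0.11) or its 5-day array (0.07), where leaving out arrays gave -0.34 to 0.11, and Cd36 at 60 against 12 days without replicate 2 (0.054), where it gave -0.46 to 0.054. With the replicate block, pairing arrays by slide, 3975, 7686 and 9979 genes were called and 10618 over the 3 ages, and no call of the 7 genes changed. Genes dim at an age, Cd36 and Pparg above all, are limited by signal over background.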
